A study of Mus musculus with 9 samples.

Results

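The cytosolic ribosomal protein genes were taken by symbol: Rpl or Rps followed by a number and at most 1 letter out of a, l or x, together with Rplp0, Rplp1, Rplp2 and Rpsa. This gave 83 of the 55488 genes in the tables, 32 of the small (40S) subunit and 51 of the large (60S) subunit, by symbol alone. Of these, 80 reached 1 TPM, a length-scaled share of transcripts, in at least 3 of the 9 libraries and were tested, 32 of the 40S and 48 of the 60S subunit. The other 3 were paralogs: Rpl10l was listed at 0 in every library, Rpl3l lay between 0 and 1.09 TPM and Rpl39l between 0 and 2.07 TPM.

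RNA was sequenced from 9 libraries of 100 sorted cells each from C57BL/6 fetal livers at embryonic day 14.5, with 3 libraries in each of 3 groups. Evi1 HSC libraries held GFP+ cells of the CD150+ and CD48- part of the c-Kit+, Sca-1+ and Lin- fraction, from Tie2-Cre::ROSA-Evi1 embryos. There a Cre driven by Tie2, in endothelium and blood, acts on the allele for the transcription factor Evi1. WT HSC libraries held cells of the same CD150+, CD48- gate with no GFP criterion. WT KL libraries held c-Kit+ cells that were Sca-1- and Lin-. Both came from ROSA-Evi1 embryos without the Cre, so all 3 groups carried the ROSA-Evi1 allele. The HSC gate is one for haematopoietic stem cells and the KL gate one for committed progenitors, and no label says that the replicates came from separate embryos, so the p-values cover the spread between samples that may be technical repeats.

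Of the 9 libraries, 2 went against their labels in marker genes. Mecom, the gene of Evi1, had 0.0167 TPM for the library labelled WT HSC replicate 3 and 90.8 TPM for the one labelled WT KL replicate 1. It held 114 to 210 TPM in the other HSC libraries and 0.0107 and 0.325 TPM in WT KL replicates 2 and 3. Summed over 10 granulocyte and monocyte markers, those same 2 libraries held 1176 and 81.7 TPM, against 56.0 to 75.8 TPM in the other HSC libraries and 632 and 2113 TPM in the other WT KL libraries. Results are therefore given over the 9 libraries as labelled and over 7 libraries without these 2. The libraries labelled WT HSC replicate 3, WT KL replicate 2 and WT KL replicate 3 also shared 15422 to 15819 genes at 1 TPM or more and 17.4 to 18.1% of the listed TPM in mitochondrially encoded genes. The other 6 had 18258 to 18806 genes and 11.6 to 14.6%.

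Each ribosome carries a single copy of nearly every ribosomal protein, so the cell needs their messenger RNAs in roughly matched amounts. Those messengers belong to the TOP class: they start with a C followed by a run of pyrimidines, the terminal oligopyrimidine motif, through which growth signalling by mTORC1 sets their translation. Blood formation is sensitive to the supply, since loss of a single copy of genes such as Rps19, Rpl5 or Rpl11 causes Diamond-Blackfan anaemia, a failure of red cell production.

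The annotated first bases of 8 members are shown, because they carry the motif by which these genes are known. The first 4 have the motif at the annotated start, and the last 4 are members lower in WT HSC than in WT KL over 7 libraries. Each window holds 10 bases before and 20 bases from the start of the transcript in RefSeq on GRCm38.p6, and capitals mark the longest unbroken run of C or T within 20 bases of the start, as far as the window shows it.
Rpl35 (chr2:39005112-39005141, minus strand): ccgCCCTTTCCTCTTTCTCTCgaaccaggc
Rps10 (chr17:27635225-27635254, minus strand): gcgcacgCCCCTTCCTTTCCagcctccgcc
Rps6 (chr4:86857348-86857377, minus strand): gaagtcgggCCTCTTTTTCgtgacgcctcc
Rps27 (chr3:90213629-90213658, minus strand): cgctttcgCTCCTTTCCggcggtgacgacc
Rps2 (chr17:24720053-24720082, plus strand): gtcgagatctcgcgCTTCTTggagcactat
Rpl7a (chr2:26910797-26910826, plus strand): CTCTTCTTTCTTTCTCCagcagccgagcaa
Rps12 (chr10:23787190-23787219, minus strand): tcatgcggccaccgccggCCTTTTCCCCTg
Rps27l (chr9:66946076-66946105, plus strand): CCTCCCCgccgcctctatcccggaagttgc
In the first 4 the run covers the annotated first base, and in Rps2, Rps12 and Rps27l it lies to one side of it. In Rpl7a the run also covers that base, but the base is not a C.

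RefSeq's promoter table matched 61 of the 83 members. A C at the annotated start followed without a break by pyrimidines, in a run of at least 5 bases, was found in 14 of them (23.0%), against 3.01% of the 27025 genes in the table. A run of at least 8 pyrimidines within 20 bases of the start was found in 30 (49.2%), against 18.4% of all genes. In the 300 bases around the start, searched on both strands, CCGGAAG, a sequence of the kind bound by ETS-family factors, was found in 25 members (41.0%) against 9.93% of all genes. AAGATGGC, of the kind bound by YY1, was in 5 (8.20%) against 3.19%, and the E-box CACGTG in 6 (9.84%) against 8.09%. Of the 10 members that were lower in WT HSC than in WT KL over 7 libraries, 8 were in the promoter table, and 0 of these 8 had the motif at the annotated start, while 3 had a run of at least 8 pyrimidines nearby. Among the 70 other members tested, 50 were in the table, of which 14 had the motif at the start and 27 a long run. In Evi1 HSC against WT KL, the motif was at the start in 2 of 15 lower members and 11 of 41 not called. It was also there in 1 of 2 higher members, Rpl32l. This member, counted among the 14, is annotated as a processed pseudogene. All these counts rest on letters at annotated starts, which can lie some bases from the starts used in these cells.

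In the deposited TPM, which divide by transcript length, levels among the members spanned from 6.77 TPM for Rps4l to 1350 TPM for Rpl32 in the mean of the 9 libraries. The median tested member stood at 340 TPM, 412 TPM in the 40S and 330 TPM in the 60S subunit. On average 70 of the 83 members held at least 100 TPM. Among the highest were Rpl32 of the 60S subunit and Rpl4, which lines the tunnel through which the new chain leaves, with 989 TPM. They were followed by Rplp0 with 924 TPM and Rplp1 with 854 TPM, proteins of the stalk that recruits the elongation factors. The third stalk protein, Rplp2, held 396 TPM, from 356 to 429 TPM. At the low end, after the 3 untested paralogs and Rps4l, came Rpl21 with 25.4 TPM. The plot of TPM by gene gives the tested members in each library, 1 left out.

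**Figure D1:**
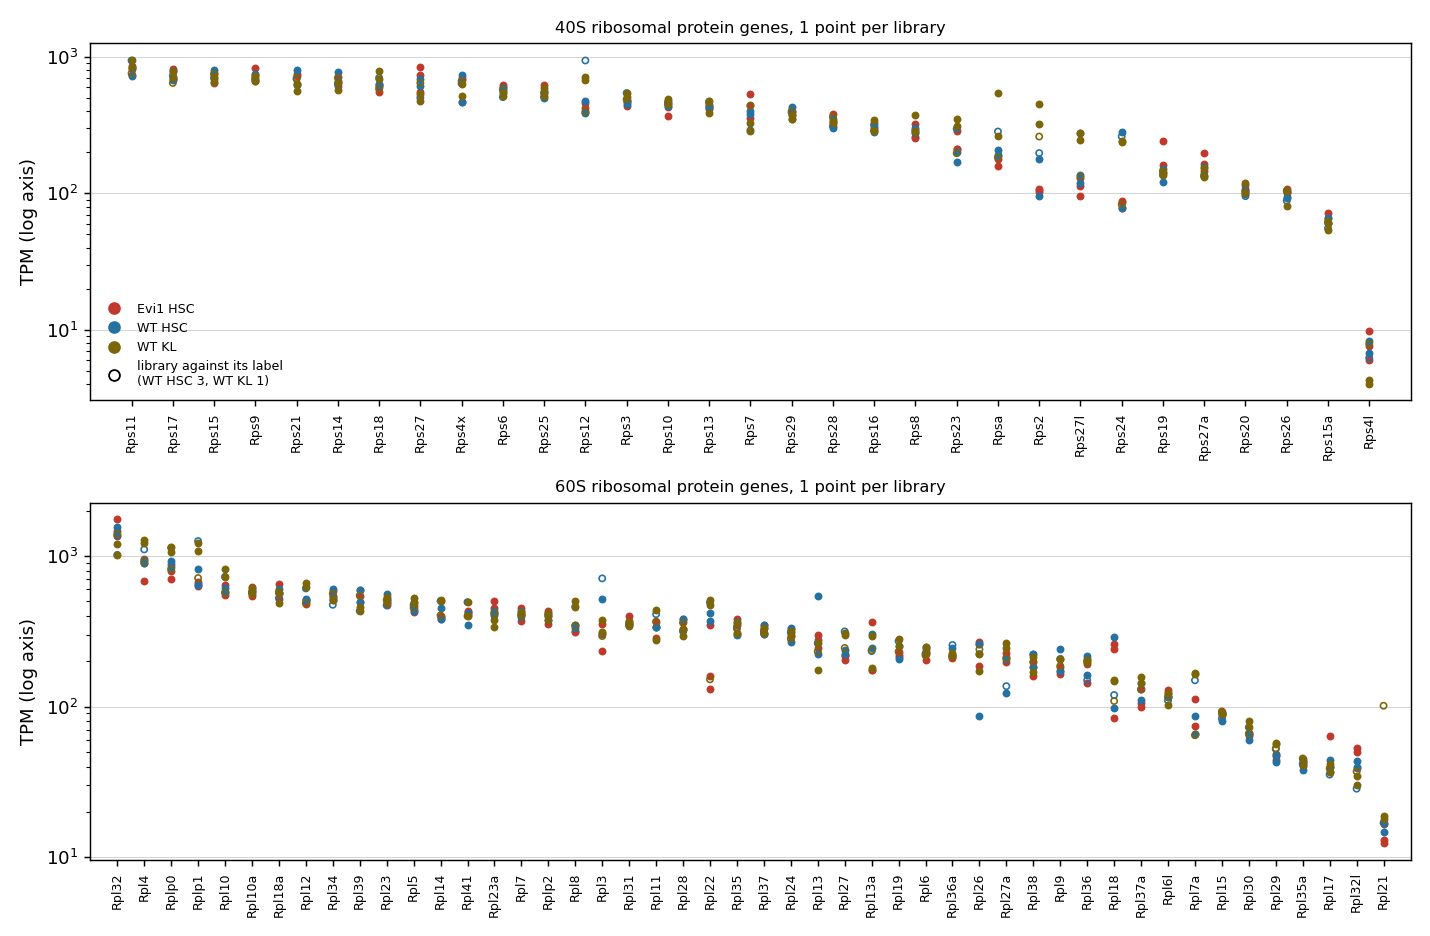
TPM (log axis) of the tested ribosomal protein genes but 1, the 40S subunit above and the 60S subunit below, ordered by their mean. Each point is 1 library, coloured by its labelled group, with open points for WT HSC replicate 3 and WT KL replicate 1. Most genes hold their 9 libraries in a narrow band, while Rps2, Rps24, Rpl22, Rpl18 and Rpl21 spread widely.

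Many members have near-identical copies elsewhere in the genome. The tables list 318 ribosomal protein pseudogenes, which together held 2.03 to 2.27% of the listed TPM in every library, and 62 members had at least 1. The sources used here do not give how reads that match several copies were shared out. For 14 members the pseudogene rows summed to more than the gene itself. Among these they held 93.4% of the joint TPM for Rpl17, 87.8% for Rpl35a, 81.2% for Rpl21 and 81.2% for Rpl15. They held 78.9% for Rps12, 74.9% for Rpsa, 72.9% for Rpl7a, 65.8% for Rps2 and 59.6% for Rps23. With each member joined to its pseudogene rows, the highest was Rps12 at 2570 TPM and the median was 488 TPM. The levels of these members are uncertain for that reason. In the GENCODE M21 annotation of GRCm38, 3 members (Rps4l, Rpl6l and Rpl32l) are themselves processed pseudogenes. In addition 11 members share over 10% of their exonic bases with another gene, among them Rpl35 (66.2%, with Wdr38 and Arpc5l) and Rpl23a (59.7%, with Tlcd1), and whether strand was used in counting is not given.

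Summed over its members, the ribosomal protein share of the listed TPM was nearly even across the 9 libraries. Evi1 HSC replicates 1 to 3 held 4.94, 4.84 and 5.45%. WT HSC replicates 1 and 2 held 5.41 and 5.03%, and that labelled WT HSC replicate 3 held 5.36%. The library labelled WT KL replicate 1 held 4.95%, and WT KL replicates 2 and 3 held 5.37 and 5.30%. The ranges of the 3 groups overlapped. Group means were 5.08 ± 0.33% in Evi1 HSC, 5.26 ± 0.20% in WT HSC and 5.21 ± 0.23% in WT KL (SD, n = 3 each). Leaving the mitochondrially encoded genes out of the total gave 5.86 ± 0.27%, 6.20 ± 0.34% and 6.26 ± 0.44% (SD, n = 3 each), again with overlapping libraries. Evi1 HSC, at 5.67 to 6.16%, overlapped WT HSC replicates 1 and 2, at 6.29 and 5.82%. Overlap of HSC with WT KL came from the libraries labelled WT HSC replicate 3 (6.49%) and WT KL replicate 1 (5.75%). Without these 2 the other HSC libraries held 5.67 to 6.29%, all below WT KL replicates 2 and 3 with 6.54 and 6.47%. This difference was not tested.

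The 60S members summed to more than the 40S members in every library. Evi1 HSC replicates 1 to 3 had 60S to 40S ratios of 1.19, 1.16 and 1.25, the 3 WT HSC libraries 1.25, 1.26 and 1.25, and the 3 WT KL libraries 1.20, 1.24 and 1.25. The 3 lowest ratios belonged to Evi1 HSC replicates 1 and 2 and the library labelled WT KL replicate 1, and Evi1 HSC replicate 3 lay among the WT HSC libraries. This order did not hold with pseudogene rows added: Evi1 HSC replicate 2 was still lowest (1.159), but WT KL replicate 2 (1.175) and the one labelled WT HSC replicate 3 (1.173) came next. Evi1 HSC replicate 1 (1.185) and the library labelled WT KL replicate 1 (1.184) then lay above both. With ribosomal proteins outside the symbol rule added instead, such as Fau and Rack1, the 3 lowest libraries stayed the same. Evi1 HSC replicate 3 (1.128) then lay below all WT HSC libraries (1.141 to 1.149). The place of Evi1 HSC replicate 3 against WT HSC thus depended on which genes were counted, and no difference in the ratio was tested. Rpl22, in its gene row, was low in Evi1 HSC replicates 1 and 2 and the library labelled WT KL replicate 1, with 131 to 159 TPM against 347 to 508 TPM in the other 6.

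**Figure D2:**
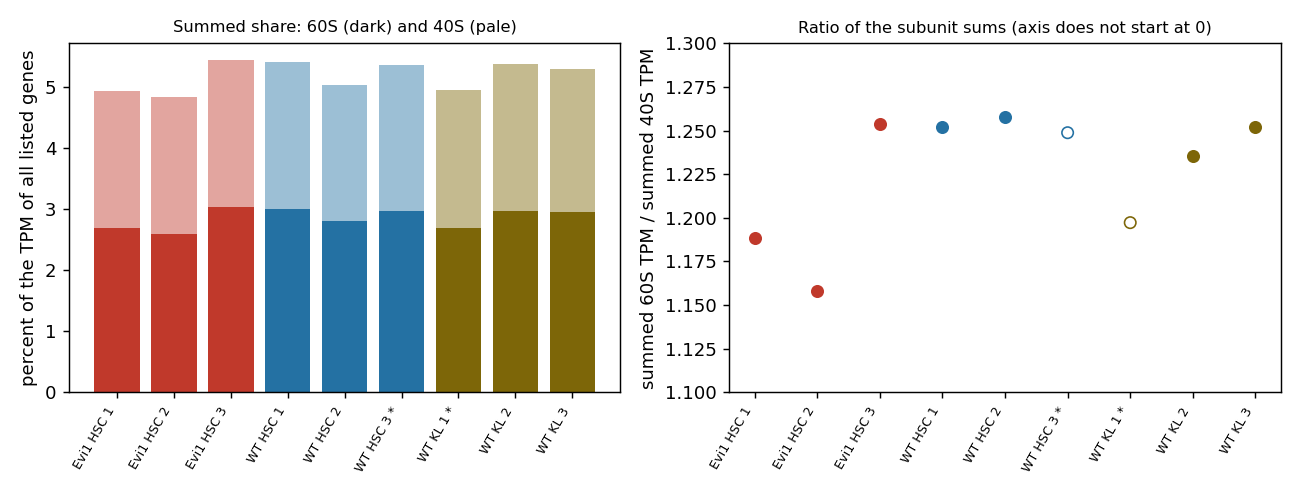
Left, percent of the TPM of all listed genes held by the 60S (dark) and 40S (pale) members in each library. Right, summed 60S TPM divided by summed 40S TPM. Colours are the labelled groups, and asterisks mark the libraries labelled WT HSC replicate 3 and WT KL replicate 1. Shares lie between 4.84 and 5.45% with no separation of the groups, and the ratio is lowest in Evi1 HSC replicate 2 at 1.16.

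Over all 9 libraries, most members had a small spread. For the 70 members at 100 to 1500 TPM on average the median SD of log2(TPM + 1) was 0.16, against 0.30 for the 471 other genes in that range, and 48 of these 70 had an SD under 0.25 against 203 of those 471. In 48 members the highest library was under 1.5 times the lowest. The steadiest were Rpl10a (542 to 621 TPM), Rpl15 (80.4 to 92.9 TPM) and Rpl31 (343 to 402 TPM), all proteins of the 60S subunit. The widest spreads on the log2 scale were those of Rpl21 (SD 0.89), Rps24 (0.86), Rps2 (0.82), Rpl22 (0.80) and Rpl18 (0.65).

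Evi1 HSC and WT HSC did not differ in any ribosomal protein gene past the threshold of limma, a linear model test across all genes on log2(TPM + 1), at a Benjamini-Hochberg adjusted p under 0.05. Over 9 libraries 0 of 80 members were called (0.00514% of all genes were), 2 had an unadjusted p under 0.05 (4.66% of all genes did), and the smallest adjusted p of a member was 0.791. Over 7 libraries 0 of 80 were again called (0.206% of all genes were), 1 had an unadjusted p under 0.05 (8.4% of all genes did), and the smallest adjusted p was 0.531. The median log2 fold change of the members was -0.006 over 7 libraries, against 0.001 for all genes tested, 0.02 for the 40S and -0.03 for the 60S members. In 70 of 80 members it was smaller than 0.25 in size, and in 73 the 95% interval lay within a 2-fold change in either direction. The intervals of the other members were wider, so a 2-fold change in them was not excluded. The erythroid markers moved between these groups: over 7 libraries 3 of 10 fell in Evi1 HSC (Gata1, Epor and Klf1, the last by 3.69 on the log2 scale). Over 9 libraries 0 of these 10 markers were called. Their sums overlapped, from 919 to 1999 TPM for Evi1 HSC, against 970 and 1170 TPM for WT HSC replicates 1 and 2, and their part in the values of the members was not tested.

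Rpl22, an RNA-binding protein of the 60S surface needed for T cell development, had the largest difference of these groups. The 3 Evi1 HSC libraries had 159, 131 and 347 TPM, while WT HSC replicates 1 and 2 had 416 and 373 TPM. The lowest WT HSC library thus lay just above Evi1 HSC replicate 3, and the groups did not overlap. The log2 fold change was -1.02 ± 0.37 (SE) over 7 libraries with an adjusted p of 0.531 by limma, which does not pass. Over 7 libraries, 2 members lay higher and 6 lower in Evi1 HSC without overlap, where 11.8 and 12.3% of all genes did.

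Rps24, a 40S protein mutated in some Diamond-Blackfan families, had 87.5, 77.8 and 86.3 TPM across Evi1 HSC, 280 TPM in WT HSC replicate 1 and 77.9 TPM in WT HSC replicate 2. WT HSC replicate 2 thus lay with the Evi1 HSC libraries. The log2 fold change was -0.81 ± 0.46 (SE; adjusted p = 0.704, limma, 7 libraries). It became 0.10 without WT HSC replicate 1 and -1.73 without WT HSC replicate 2, so that the value rested on which of these 2 libraries was kept. Each of these leaves a single WT HSC library, assumed by the fit to vary like the other groups. The other members with the smallest unadjusted p over 7 libraries were Rpl3, which lies by the catalytic centre (-0.45 ± 0.25), and, above 0, Rps23 of the decoding centre (0.34 ± 0.17), Rps19 (0.39 ± 0.23) and Rpl27a (0.40 ± 0.21; all log2 fold changes ± SE, none past the threshold). Over 9 libraries the corresponding members were Rpl22, Rps24, Rpl3, Rps27a, Rps19 and Rpl27a, with log2 fold changes from -1.13 to 0.48.

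Between WT HSC and WT KL, calls among the members appeared only once the 2 libraries against their labels were left out. Over 7 libraries the TPM of 10 of 80 members (12.5%) fell in WT HSC and 0 rose, at adjusted p under 0.05 in limma, where 37.5% of all genes were called, 26.7% higher and 10.8% lower. The share of lower calls among the members was thus near that of all genes, and higher calls were absent. The 10 were Rps2, Rps12, Rps23 and Rps27l of the 40S subunit and Rpl7a, Rpl8, Rpl10, Rpl12, Rpl27 and Rplp1 of the 60S subunit. The median log2 fold change was -0.04 for the members and 0.26 for all genes tested. In bulk samples, fewer cells of a type and less RNA per cell cannot be told apart. Over 9 libraries as labelled 0 of 80 were called (0.00514% of all genes), with 2 at an unadjusted p under 0.05 (1.45% of all genes) and a smallest adjusted p of 0.963.

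Rps2, which sits by the messenger RNA entry of the 40S subunit, had the largest difference. It had 178 and 96.3 TPM in the 2 WT HSC libraries, against 325 and 451 TPM in the 2 of WT KL. Both WT KL libraries lay above both WT HSC libraries. The log2 fold change was -1.54 ± 0.29 (SE; adjusted p = 0.00648 by limma). The libraries labelled WT HSC replicate 3 and WT KL replicate 1 had 198 and 261 TPM, so that in the gene row both lay on the side of their labels. With the pseudogene rows added they did not: these libraries then had 766 and 567 TPM, where WT HSC replicates 1 and 2 had 528 and 404 TPM and WT KL replicates 2 and 3 had 855 and 924 TPM. Joined in this way over 7 libraries, Rps2 had a log2 fold change of -0.94 ± 0.14 (SE; adjusted p = 0.00245 by limma), smaller than in the gene row by more than 1.5 times.

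Rps27l, a paralog of Rps27 known as a target of the tumour suppressor p53, had 136 and 119 TPM in the 2 WT HSC libraries against 278 and 248 TPM in the 2 of WT KL. Rps12, a protein of the 40S head, held 478 and 386 TPM against 680 and 710 TPM. Rpl7a held 65.9 and 86.3 TPM against 164 and 167 TPM. In all 3 genes the WT KL libraries lay together and well above the WT HSC libraries. Their log2 fold changes were -1.04 ± 0.17 for Rps27l, -0.69 ± 0.13 for Rps12 and -1.12 ± 0.26 for Rpl7a (SE; adjusted p = 0.00369, 0.00612 and 0.0151 by limma). In the library labelled WT HSC replicate 3 these 3 genes had 275, 943 and 150 TPM, and in that labelled WT KL replicate 1 they had 133, 399 and 64.5 TPM.

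Of the other 6, Rps23 fell by 0.83 on the log2 scale and Rplp1 by 0.67. Rpl8, a protein of the catalytic centre, fell by 0.50 and Rpl27 by 0.39. Rpl10, which joins the 60S subunit last in its maturation, fell by 0.37, and Rpl12, at the base of the stalk, fell by 0.31. These 6 had adjusted p between 0.00755 and 0.0366 by limma. Some calls rested on the settings: Rpl12, Rpl10 and Rpl27 passed in 11, 12 and 14 of 21 alternatives, with adjusted p of up to 0.181, 0.178 and 0.248 by limma. Rps23, Rpl8 and Rplp1 passed in 18, 18 and 20 of 21. In each, both WT HSC libraries lay below both WT KL libraries, as in 25 of 80 members, while 11 lay above without overlap. Among all genes tested 25.2% lay below and 47.4% above in that way. Rpsa (-0.93, adjusted p = 0.0517), Rps4l (0.72, adjusted p = 0.0555) and Rpl27a (-0.66, adjusted p = 0.0577) came closest to the threshold without passing it, and were picked after their values were seen. Joined with pseudogene rows, the log2 fold change was -0.73 for Rpl7a, -0.37 for Rps23 (adjusted p = 0.0296) and -0.58 for Rpsa, which then passed (adjusted p = 0.00567 by limma).

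**Figure D3:**
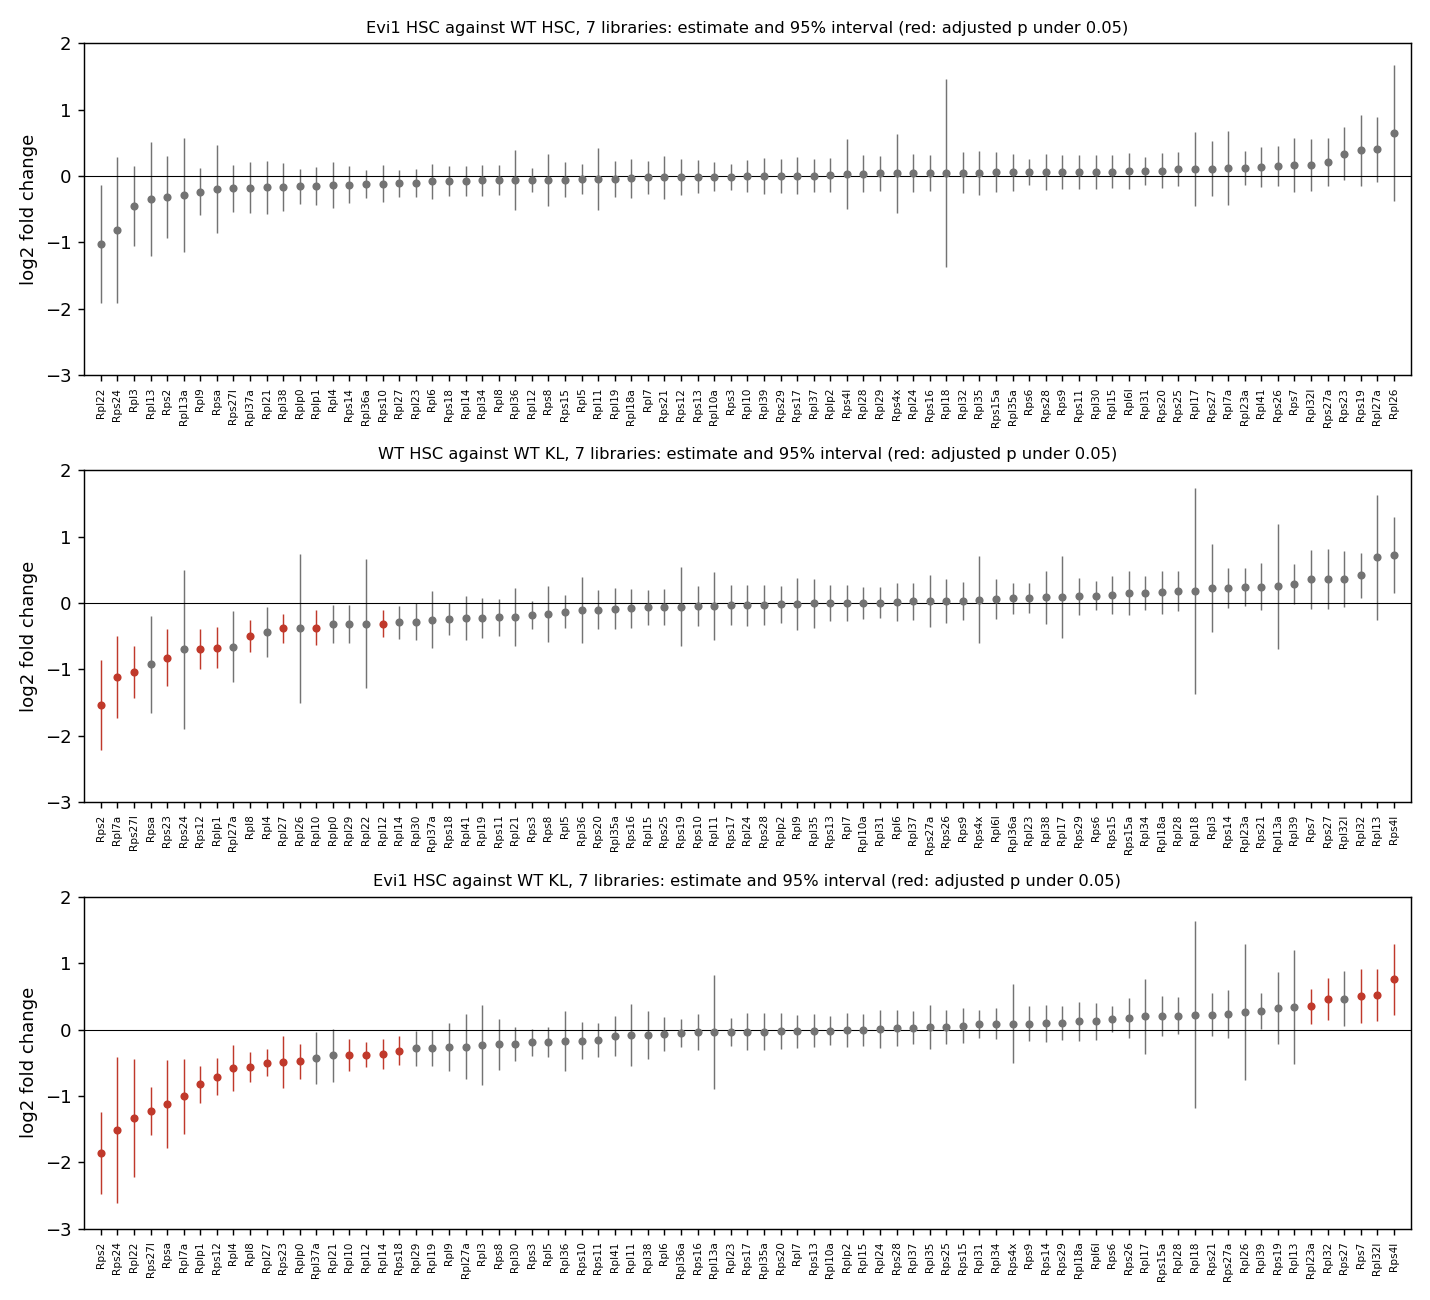
Fitted log2 fold change of the tested members, 1 left out, each with its 95% interval, in each of the 3 comparisons over 7 libraries, ordered by size. Red marks an adjusted p under 0.05. No member is red in Evi1 HSC against WT HSC, 10 are red in WT HSC against WT KL, all below 0, and 22 in Evi1 HSC against WT KL, 17 below 0 and 5 above. The last 2 panels share the WT KL libraries.

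In Evi1 HSC against WT KL, members were called in both directions. Over 7 libraries 17 members fell and 5 rose, where 45.5% of all genes were called, 14.3% lower and 31.3% higher. That is 27.5% of the members, 9 of 32 in the 40S and 13 of 48 in the 60S subunit. Their median log2 fold change was -0.03 against 0.28 for all genes. Over 9 libraries 0 were called (0.0103% of all genes), 4 had an unadjusted p under 0.05 (15.2% of all genes did), and the smallest adjusted p was 0.302, that of Rps2. This comparison shares its WT KL libraries with the previous one, so their values are given side by side and are no support for each other. It also has 3 HSC libraries where the previous one has 2, and the difference between the comparisons was not tested. Without Evi1 HSC replicate 1, 11 members were called, a count given without that of all genes.

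Rps2 had 102, 108 and 106 TPM across Evi1 HSC, against 325 and 451 TPM in WT KL replicates 2 and 3. The 3 Evi1 HSC libraries lay close together, far below WT KL. The fitted log2 fold change came to -1.85 ± 0.26 (SE; adjusted p = 0.00154 by limma), or -1.05 ± 0.12 when joined with its pseudogene rows. Rplp1, the acidic stalk protein, had 669, 652 and 630 TPM against 1222 and 1087 TPM, a log2 fold change of -0.83 ± 0.12 (adjusted p = 0.00172). Again no Evi1 HSC library came near WT KL. In the library labelled WT HSC replicate 3 Rplp1 reached 1257 TPM, above every WT KL library.

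Among the 10 largest falls were also Rps24 (-1.51), Rpl22 (-1.34), Rps27l (-1.22), Rpsa (-1.12), Rps12 (-0.71), Rpl4 (-0.58) and Rpl8 (-0.56; all log2 fold changes), and Rpl7a, at 0.499 times its WT KL level. Rpsa, a 40S protein also described as a laminin receptor, had 158 to 189 TPM among Evi1 HSC libraries, 549 TPM in WT KL replicate 2 and 264 TPM in WT KL replicate 3, which differ widely. Joined with pseudogene rows the log2 fold change was -0.53 for Rpsa, -0.63 for Rpl7a and -0.22 for Rps23, which then did not pass (adjusted p = 0.0915 by limma). The 5 that rose were Rps4l (0.76), Rpl32l (0.53), Rps7 (0.51), Rpl32 (0.47) and Rpl23a (0.35), of which the first 2 are annotated as processed pseudogenes. Rpl32 had 1471, 1364 and 1752 TPM across Evi1 HSC, against 1202 and 1008 TPM for WT KL replicates 2 and 3. All Evi1 HSC libraries lay above these WT KL libraries. None of the 5 rises was called under the replicate block or without a filter on low values, and none under scaling by the median ratio.

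Markers of other cells moved with both KL comparisons over 7 libraries. Since the 2 libraries were left out for such markers, these calls follow in part from that choice, and over 9 libraries 0 of 10 stem cell and 0 of 10 granulocyte and monocyte markers were called in either comparison. The same held for the 10 erythroid and 6 endothelial markers over 9 libraries, with 0 called. Over 7 libraries all 10 stem cell markers were higher and 8 of 10 granulocyte and monocyte markers lower in WT HSC than in WT KL, with 1 of the latter higher, and likewise in Evi1 HSC. The 10 stem cell markers summed to 761 to 886 TPM in the 5 HSC libraries and to 9.87 and 10.2 TPM in WT KL replicates 2 and 3. Of the 10 erythroid markers 7 were lower and 1 was higher in each HSC group. Their sums were 919 to 1999 TPM in the 5 HSC libraries and 1594 and 1612 TPM in these WT KL libraries. The 6 endothelial markers summed to 38.2 to 94.3 TPM in the 5 HSC libraries and 4.54 and 7.82 TPM in these WT KL libraries, and 3 of them were higher in WT HSC and 5 in Evi1 HSC. The 7 hepatocyte markers summed to 0.658 to 7.89 TPM and the 7 macrophage markers to 3.26 to 12.6 TPM in these 7 libraries. The same 2 WT KL libraries differed in genes detected and in mitochondrial share, as given above. The part of these differences in the ribosomal protein values was not tested.

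Several members took 2 separate levels that did not follow the groups. Rps24 was listed at 77.8 to 87.5 TPM in all Evi1 HSC libraries, in WT HSC replicate 2 and in that labelled WT KL replicate 1, and at 239 to 280 TPM in the other 4. No library lay between 87.5 and 239 TPM. Rpl22 was listed at 131 to 159 TPM in 3 libraries and at 347 to 508 TPM in 6. Rpl18 stood at 242, 261 and 290 TPM in Evi1 HSC replicates 1 and 3 and WT HSC replicate 1, and at 83.7 to 151 TPM in the other 6. Its libraries split within both HSC groups, so that its log2 fold change between them was 0.05 ± 0.60 (SE).

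Others had 1 library apart. Rpl26, a 60S protein at the exit of the tunnel, was at 86.6 TPM in WT HSC replicate 2 and at 172 to 270 TPM in the other 8. Rpl13 was at 542 TPM in WT HSC replicate 1 and at 176 to 301 TPM elsewhere, and without WT HSC replicate 2 its log2 fold change in WT HSC against WT KL was 1.33, which rests on that single WT HSC library. Rpl21 had 101 TPM for the library labelled WT KL replicate 1 and 12.3 to 18.8 TPM elsewhere. Rpl3 stood highest in the library labelled WT HSC replicate 3, at 710 TPM, and in WT HSC replicate 1, at 519 TPM, with 236 to 379 TPM in the other 7. Summed with its pseudogene rows, Rpl21 had 210 TPM for that same library and 106 to 141 TPM elsewhere. StringTie, named in the submitters' processing notes, estimates levels from assembled transcripts, and whether those estimates set such levels was not tested.

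**Figure D4:**
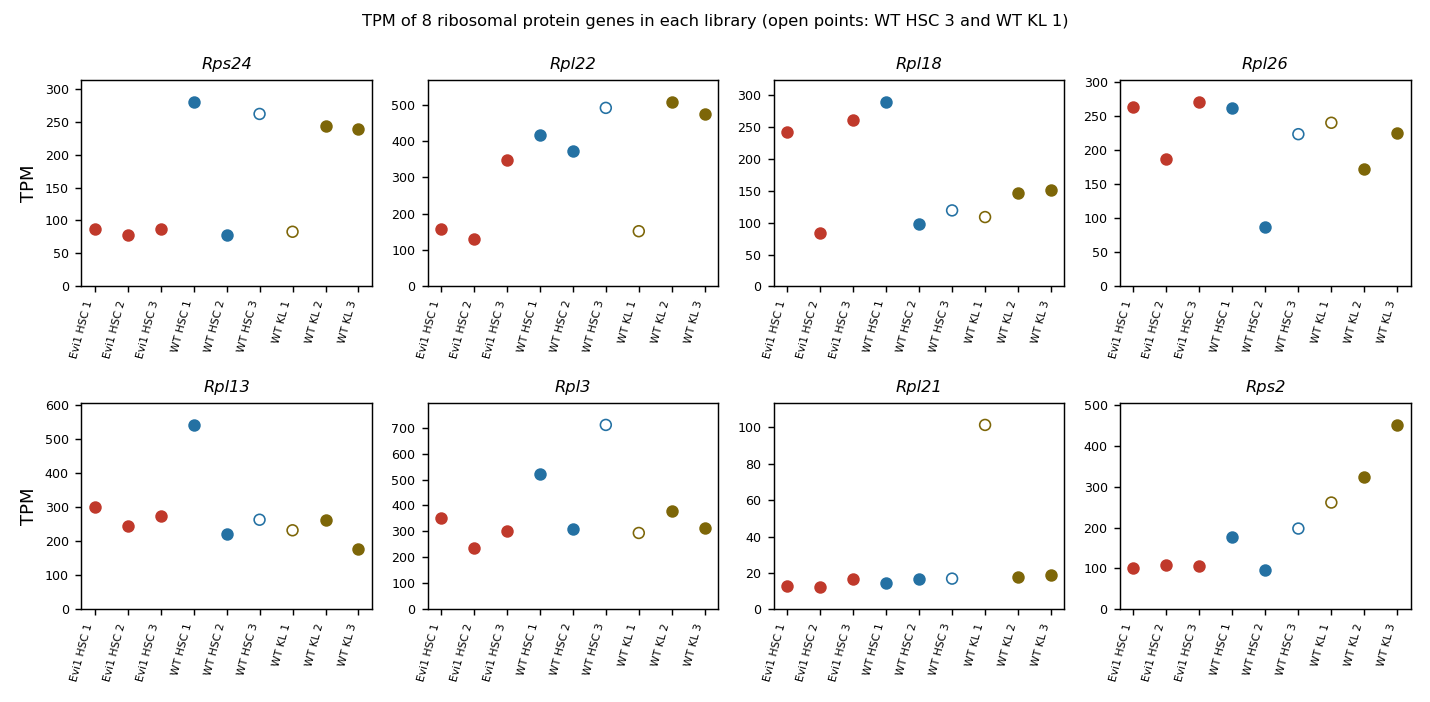
TPM of 8 members in each library, coloured by labelled group, with open points for WT HSC replicate 3 and WT KL replicate 1; each axis starts at 0. Rps24, Rpl22 and Rpl18 fall into a low and a high set that cut across groups, Rpl26, Rpl13 and Rpl21 have 1 library apart, and the gene row of Rps2, without its pseudogene rows, is highest in the 3 WT KL libraries.

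Paralogs differed in how much they contributed. Rpl22l1, a copy of Rpl22 whose expression Rpl22 is known to restrain, made up 69.3, 74.0 and 47.2% of the joint TPM of the pair in Evi1 HSC. It made up 44.1, 41.0 and 32.6% in the 3 WT HSC libraries and 66.8, 38.3 and 38.8% in the 3 WT KL libraries. The high shares belonged to the 3 libraries in which Rpl22 was low. The level of Rpl22l1 itself moved little, 237 to 373 TPM over the 9 libraries, with a log2 fold change of 0.25 ± 0.13 (SE; adjusted p = 0.687, limma, 7 libraries) in Evi1 HSC against WT HSC.

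Rps27l made up 11.4 to 17.0% of the pair with Rps27 in the 5 HSC libraries other than the one labelled WT HSC replicate 3 and in the library labelled WT KL replicate 1. In that library labelled WT HSC replicate 3 and in WT KL replicates 2 and 3 it made up 34.0 to 35.4%. Rps27 ran the other way in level, at 557 to 848 TPM in the first 6 and 479 to 538 TPM in the last 3, though it was not called in any comparison. Rpl36al made up 35.5 to 37.0% of the pair with Rpl36a in the same 6 libraries and 46.7 to 51.1% in the same 3. It fell in WT HSC (-0.82 ± 0.11) and in Evi1 HSC (-0.90 ± 0.10) against WT KL over 7 libraries (log2 fold change ± SE; adjusted p = 0.00187 and 0.000574 by limma), while Rpl36a stayed between 211 and 257 TPM in all 9. Rpl7l1 made up 5.46 to 9.32% of its pair with Rpl7, Rps4l 0.633 to 2.06% of its pair with Rps4x, and Rpl3l and Rpl39l at most 0.360 and 0.350%.

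Genes that build or use ribosomes also differed between the gates. Of 63 ribosome biogenesis factors, 33 fell and 0 rose in WT HSC against WT KL over 7 libraries, where 10.8% of all genes fell, with a median log2 fold change of -0.73. In Evi1 HSC against WT KL 45 fell and 0 rose, where 14.3% of all genes fell, with a median of -0.90. Over 9 libraries 0 of 63 were called by limma in either comparison, with 3 and 26 at an unadjusted p under 0.05 (1.45 and 15.2% of all genes). The helicase Ddx21 and the processome protein Heatr1 were among the smallest p in both, with -1.31 and -1.05 in WT HSC and -1.52 and -1.38 in Evi1 HSC. Between Evi1 HSC and WT HSC over 7 libraries 0 of 63 were called and 11 had an unadjusted p under 0.05 (8.4% of all genes did). The median was -0.24 against 0.001 for all genes.

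The other lists are given in the same way over 7 libraries, and over 9 libraries 0 genes of them were called against WT KL by limma. Over 7 libraries 10.8% of all genes fell and 26.7% rose in WT HSC against WT KL. In Evi1 HSC against WT KL 14.3% fell and 31.3% rose. No test compared the lists with each other. Of 31 translation initiation factors 14 fell in WT HSC and 19 in Evi1 HSC against WT KL, and 0 rose, with medians of -0.51 and -0.68. Of 6 elongation factors 4 and 5 fell, Eif5a by 0.94 and 1.13 on the log2 scale. Of 15 genes of RNA polymerase I, which makes the large ribosomal RNAs, 4 and 7 fell and 1 and 1 rose. Of 22 other TOP messengers 7 and 10 fell and 2 and 2 rose, and of 83 mitochondrial ribosomal proteins 33 and 42 fell and 1 and 2 rose, with medians of -0.70 and -0.72. The 22 Diamond-Blackfan genes, most of them members, had 2 falls in WT HSC and 3 falls and 1 rise in Evi1 HSC, with medians of -0.04 and 0.01. Their share of falls lay near that of all genes, while 0 and 1 of the 22 rose, where 26.7 and 31.3% of all genes did. In Evi1 HSC against WT HSC 0 genes of these 6 lists were called by limma, with 1, 0, 1, 3, 9 and 0 at an unadjusted p under 0.05, in that order. Of all genes 0.206% were called there and 8.4% had an unadjusted p under 0.05. Other abundant genes also moved: of 486 other genes at 100 TPM or more, 154 fell and 71 rose in WT HSC and 196 fell and 91 rose in Evi1 HSC against WT KL.

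TPM are shares, so a shift of many genes moves all others, and the members were rescaled in 6 other ways. In Evi1 HSC against WT HSC over 7 libraries the member median stayed between -0.029 and 0.022 and 0 members were called under each. Against WT KL the choice mattered. Scaling by the median ratio, which brought the median of all genes from 0.26 to 0.02, put the member median at -0.32 in WT HSC, with 0 members higher and 36 lower. Quantile normalization put it at 0.13, with 8 higher and 7 lower, and the median of all genes at -0.10. Dividing by the sum of the members gave 0.06, with 10 higher and 11 lower. With the total of the listed genes made equal in every library the split was 3 higher and 11 lower, and 2 and 19 with mitochondrial genes and members left out of the total.

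Evi1 HSC against WT KL moved alike. The member median was -0.33 under the median ratio, with 0 higher and 44 lower, 0.11 under quantile normalization, with 15 higher and 12 lower, and 0.09 under the sum of the members, with 16 higher and 13 lower. With the total of the listed genes made equal 8 rose and 16 fell, and 6 and 21 with mitochondrial genes and members left out. Scaling that divides each library by a factor moves the members and all genes together. Quantile normalization does not, and in WT HSC against WT KL it moved their medians in opposite directions. Dividing by the sum of the members centres the members by construction. The sign of the member median alone is therefore no measure of their direction. The counts of members called under each scaling are given without those of all genes, so they are no result about the members alone. Of single genes, Rps2, Rps12 and Rps27l were lower in both comparisons under all 21 alternatives tried over 7 libraries. Over these alternatives the log2 fold change of Rps2 ran from -1.98 to -0.94 in WT HSC and from -2.15 to -1.05 in Evi1 HSC. Rps12 ran from -0.98 to -0.50 and from -1.01 to -0.54, and Rps27l from -1.33 to -0.80 and from -1.52 to -0.99. Rplp1 and Rpl8 were called under all 21 in Evi1 HSC against WT KL, and under 20 and 18 in WT HSC against WT KL. All these calls needed the 7 libraries, since over 9 libraries 0 members were called under any alternative.

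**Figure D5:**
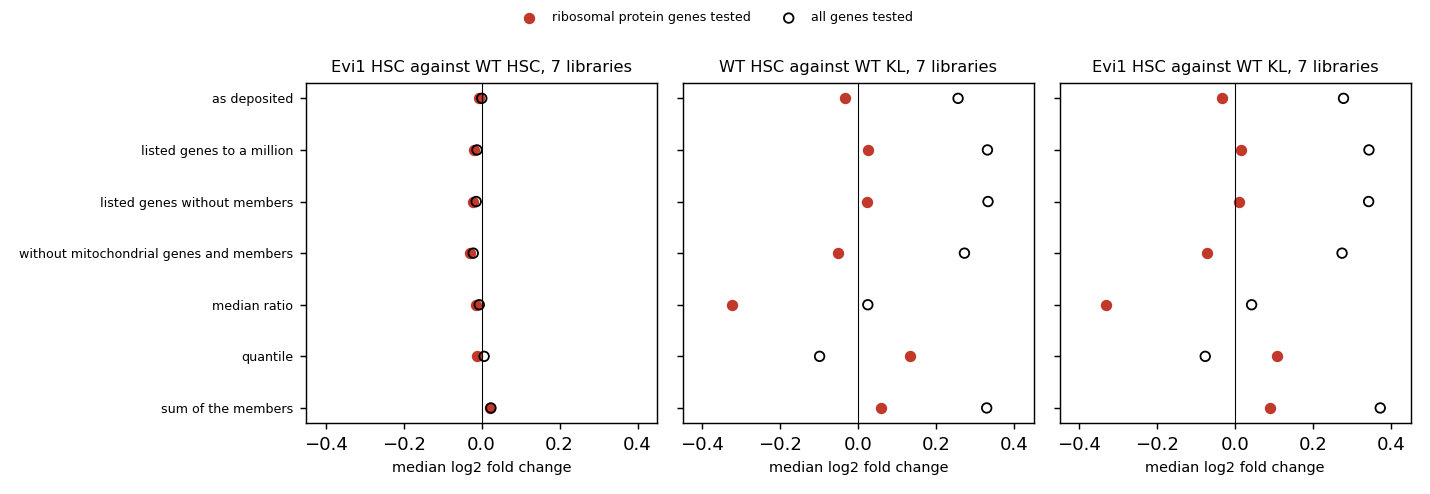
Median log2 fold change over 7 libraries of the 80 tested members (filled) and of all 19461 genes tested (open) under the deposited scale and 6 other scalings, in the 3 comparisons. Between Evi1 HSC and WT HSC both stay near 0. Against WT KL the member median moves from about -0.3 under the median ratio to above 0.1 under quantile normalization, and lies below that of all genes except under quantile normalization.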

How the data were processed

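Values are TPM, length-scaled shares of transcripts, per gene as deposited by the authors, 1 library per file, per the file headers. In the file of WT HSC replicate 2 the value column is headed C_H3 and was used as TPM. The submitters' processing notes name HISAT2, StringTie and mm10; their versions, the annotation and the use of strand are not stated there. The genes in the tables took up 56.9 to 63.8% of the full TPM scale. TPM keep no depth, so depth is unknown and no counting interval is given.

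Members and gene lists were chosen with earlier results of these data known. Groups followed the labels. limma 3.58.1 in R 4.3.3 was run on log2(TPM + 1) for the 19461 of 55488 genes that reached 1 TPM in 3 or more of the 9 libraries, with 1 mean per group, a trend in the variance and Benjamini-Hochberg adjustment over all genes tested, called at an adjusted p under 0.05. Fold changes are on that scale and understate low genes. One fit used 9 libraries and another 7, without the libraries labelled WT HSC replicate 3 and WT KL replicate 1. The fit was tested on simulated data. Named members were those called (the 10 largest per direction where over 20 were), otherwise the 3 with the smallest p per direction, with the 5 highest, the 5 lowest, the paralogs and the extremes of spread. Alternatives were pseudocounts of 0.1 and 10, filters, a replicate block, the compared groups alone, no variance trend, 6 scalings, leaving out each library, and, added after seeing the data, each member summed with its pseudogene rows. The values of 1 member are not reported here, though it is in all counts and medians. Positions and overlaps came from GENCODE M21, start windows from RefSeq.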

Additional observations from a re-analysis of the deposited data

How the results depend on the processing

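Over 9 libraries 0 members were called in the 3 comparisons under every alternative, and the median log2 fold change of the members moved beyond its spread under the median ratio, to -0.13 in Evi1 HSC against WT HSC and -0.21 in Evi1 HSC against WT KL. Over 7 libraries, WT HSC against WT KL (10 called, median -0.04) gave 6 with the replicate block, 21 with mitochondrial genes and members left out of the total, 36 under the median ratio (median -0.32) and 21 scaled to the sum of the members, and the median became 0.13 under quantile normalization. Evi1 HSC against WT KL (22 called, median -0.03) gave 10 without a filter on low values, 13 with the replicate block, 13 without the variance trend and 44 under the median ratio (median -0.33). Counts of members called in each setting, these and the following, are given without those of all genes. They are therefore no result about the members alone. Leaving out 1 WT library of the 7 leaves a lone one in its group, assumed to vary like the other groups. Leaving out 1 library gave 3 to 13 calls in the former, 3 being without WT KL replicate 2, with 6 when WT HSC replicate 2 was left out. In the latter it gave 8 to 19, 8 being without WT KL replicate 2, while both WT KL replicate 3 and Evi1 HSC replicate 1 gave 11 when left out. In Evi1 HSC against WT HSC it gave 0 to 1, the 1 being Rps24 without WT HSC replicate 2 (-1.73). Rps24 alone changed sign there, to 0.10 without WT HSC replicate 1. The median summed share of 5.30% became 5.85% with 10 ribosomal proteins outside the symbol rule (such as Fau and Rack1) and 7.54% with pseudogene rows, and the 60S to 40S ratio of 1.25 became 1.14 and 1.18. For the 25 calls of single members, 416 of 524 alternative values kept the call and 108 lost it. For the other 24 single-member results, 1 alternative value gained a call and 1 changed sign. The cause of these changes was not tested. Between same-numbered libraries, correlations of deviations across genes were -0.03, -0.06 and -0.10 for Evi1 HSC and WT HSC. They were 0.62, -0.64 and 0.70 for WT HSC and WT KL, and 0.001, 0.04 and -0.05 for Evi1 HSC and WT KL. These used deviations from group means over the 9 libraries as labelled, so the 2 libraries against their labels bear on them. They therefore cannot show whether the numbers are pairs. The main fits took no pairs, with the replicate block as an alternative. Depth is unknown, which limits what a value near 0 can show, and 7 libraries leave 2 in each WT group.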
